A study of Homo sapiens with 6 samples.

Results

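Kinesins are motor proteins that walk along microtubules or take them apart, and their genes carry the symbol KIF. Protein-coding genes whose symbol is KIF, or KIFC, followed by a number were taken as members, by matching the counted transcript of each gene to GENCODE. The annotation holds 42 such genes and 41 of them had a matched transcript. These were among 18964 matched protein-coding transcription units (TUs) that span more than 1000 bases. KIF2A was not analysed here. The 41 members were divided by textbook role into 14 mitotic kinesins, 15 transport kinesins and 12 others.

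All libraries came from untreated K562 cells, an established chronic myelogenous leukemia line, grown from a single source. Nascent transcription was measured by PRO-seq, which maps engaged RNA polymerases, in 2 libraries. Steady-state RNA was measured by RNA-seq of total RNA depleted of ribosomal RNA in 4 libraries. Following the study, the ratio of RNA-seq to PRO-seq read density scaled to a common total (TPM, which adjusts for unit length and library size) served as a relative RNA half-life for each TU whose nascent level exceeded 10 TPM and whose steady-state level exceeded 1 TPM. All half-lives below are such ratios on the log2 scale, relative to the median mRNA.

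Mitotic kinesins build and focus the spindle, move chromosomes and organise the midzone before cells divide, and their genes are known to be transcribed mainly late in the cell cycle. Transport kinesins carry vesicles, mitochondria and protein complexes along the microtubules of cells between divisions and along axons. Promoters of many genes active late in the cell cycle are known to carry a CHR element near the start site, often with CCAAT boxes upstream of it, and the CHR is bound by complexes that repress these genes in quiescent cells. An mRNA at a given transcription rate is more abundant the more slowly it decays, and the ratio of the assays estimates this relative half-life. PRO-seq density also depends on how fast polymerase elongates, which the study names as a limitation. Elongation rates were not corrected for here. The study reports that half-lives from its newly collected libraries, used here, varied more and matched published estimates less well than those from earlier data.

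Promoter sequences from RefSeq (GRCh38.p14) held both kinds of element in most mitotic kinesin genes. The windows ran from 250 bases before to 50 bases after each annotated start. They were searched on both strands for CCAAT and for the CHR letters TTTGAA or TTCGAA, of which the latter reads the same on either strand. A CHR ending in A can share that letter with a CCAAT box read on the other strand. The 14 mitotic genes had 15 windows, of which 73.3% held CCAAT, 80.0% held a CHR and 66.7% held both. The 16 windows of 11 transport genes held these in 31.2%, 6.25% and 6.25%. The 11 windows of 8 other kinesin genes held them in 36.4%, 9.09% and 9.09%. Across 20723 windows of 14622 protein-coding genes with a counted TU the shares were 34.6%, 13.4% and 5.4%. The letters of the CHR were found in 11 mitotic genes, in KIF5B among the transport genes and in KIF24 among the others. A match of letters is a description of the window, not a binding site.

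The windows below show the CHR in the 5 mitotic genes where the whole printed window lies upstream of the start, and in KIF5B, the transport gene that has the letters too. Each is 30 bases on the gene's own strand, 5′ to 3′, with the CHR letters in capitals, and positions count from the nearest annotated start site.
KIF11 (chr10:92593090-92593119, plus strand, position -28): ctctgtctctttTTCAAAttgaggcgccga
KIF15 (chr3:44761747-44761776, plus strand, position -35): ccaagcgccaaaTTCAAAtttgcggccatc
KIF22 (chr16:29790712-29790741, plus strand, position -27): ggcaccggggaaTTCGAAtgggagaggcgg
KIF23 (chr15:69414282-69414311, plus strand, position -55): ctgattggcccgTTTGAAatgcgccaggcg
KIF4A (chrX:70290058-70290087, plus strand, position -34): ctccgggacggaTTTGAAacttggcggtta
KIF5B (chr10:32056548-32056577, minus strand, position -140): agtgcagtaaaaTTTGAAtctgcgaccccg
The 5 mitotic matches lay within 55 bases of the start, whereas the one in KIF5B lay 140 bases away. KIF23 also shows a CCAAT box on the other strand (attgg) within the printed window. KIF20A, KIF2C and KIF2B were the mitotic genes without CHR letters in their windows, and the former pair was well transcribed.

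**Figure D1:**
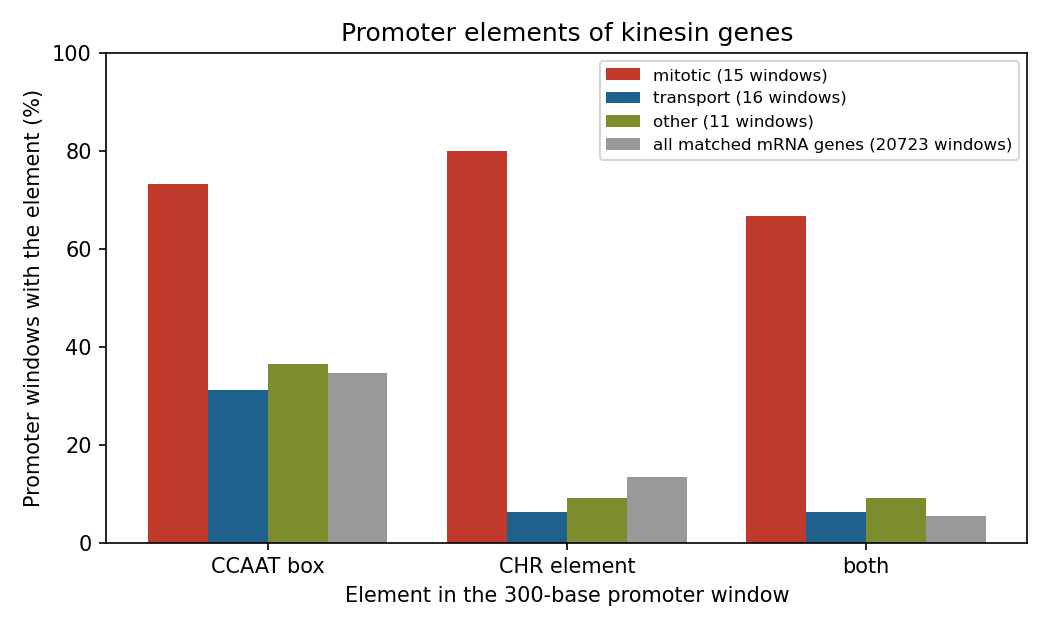
Share of 300-base promoter windows (y axis, percent, starting at 0) that hold CCAAT, the CHR letters or both, for mitotic, transport and other kinesins and for all protein-coding genes with a counted TU. The mitotic bars stand at 73.3%, 80.0% and 66.7%, whereas the transport bars, at 31.2%, 6.25% and 6.25%, lie near or under those of all genes.

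Counts on TUs ranged from 5732780 to 9002746 per RNA-seq library and were 6993816 and 7245632 in PRO-seq. Kinesin genes held 0.292% to 0.299% of the matched RNA-seq counts and 0.338% and 0.339% of the PRO-seq counts, so their summed share was nearly equal across the libraries of an assay. All 8 erythroid marker genes of K562 were above 1 TPM in RNA-seq (28.4 to 6290 TPM). Of 5 matched markers of other cell types (range 0.186 to 120 TPM), the 2 above 1 TPM were EPCAM, at 120 TPM, and COL1A2, at 1.36 TPM. The part of those cell types in the kinesin values was not tested. Libraries of an assay came from the same cells, so the spread between them and the p-values do not cover differences between cultures.

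Of the 41 kinesins, 28 passed both thresholds: 12 of the 14 mitotic, 12 of the 15 transport and 4 of the 12 others. The remaining 13 were all at or below 10 TPM in PRO-seq. Mitotic kinesins were the most transcribed class, although in bulk cells a gene used by few cells and a gene with little RNA per cell cannot be told apart. Over all listed members, the median PRO-seq level was 57.7 TPM for mitotic, 18.3 TPM for transport and 3.12 TPM for other kinesins, against 8.04 TPM for all mRNAs. The median RNA-seq levels were 60.8, 10.5 and 0.784 TPM, against 2.67 TPM for all mRNAs. Mitotic members held 67.5% of the summed RNA-seq TPM of all kinesins and 62.2% of their PRO-seq TPM, and transport members 29.1% and 28.7%. KIF2C, KIF5B and KIF22 alone held 42.9% of the RNA-seq TPM.

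**Figure D2:**
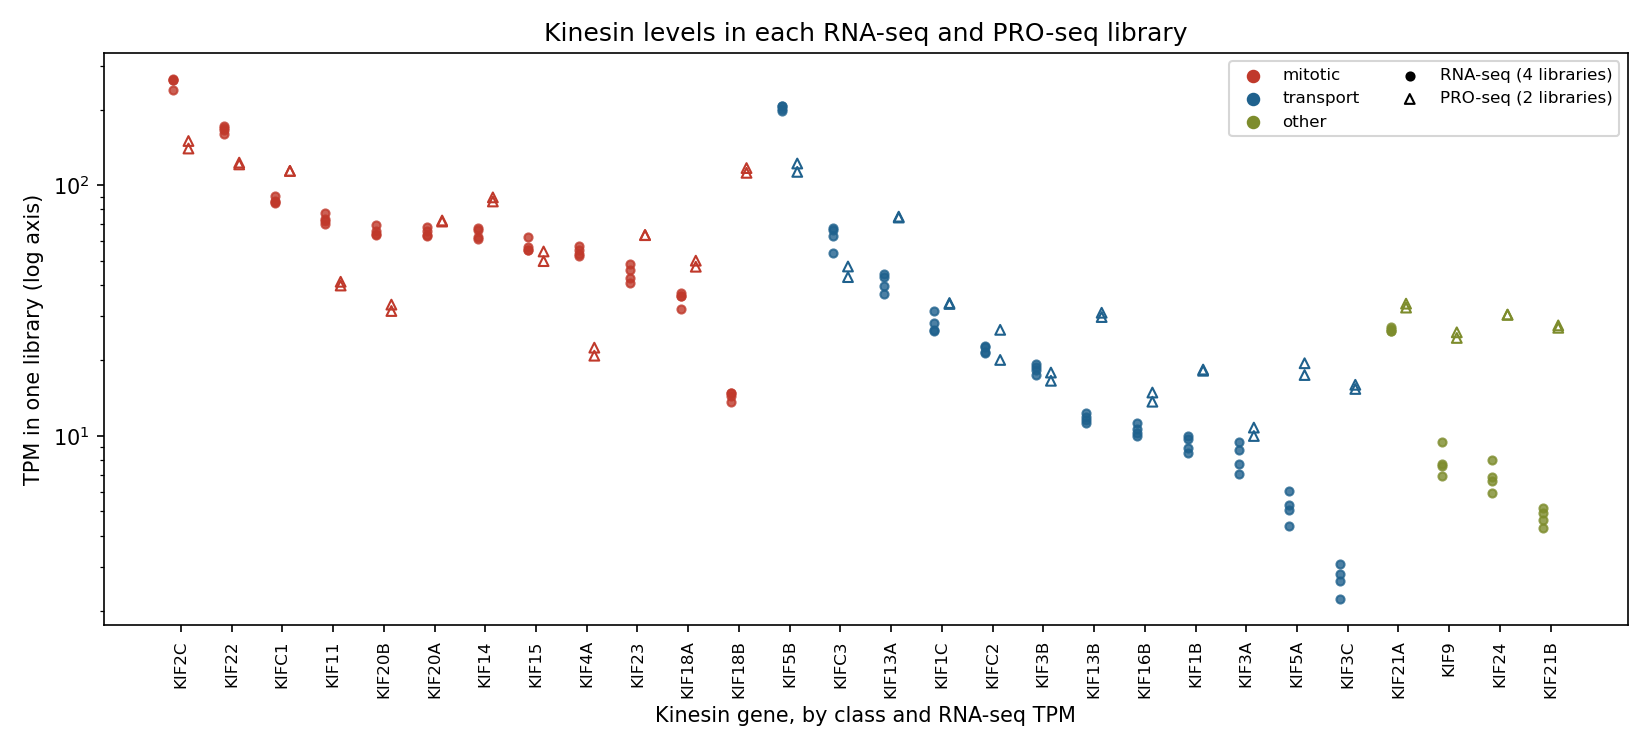
TPM (y axis, log scale) of each of the 28 kinesins past the thresholds in every RNA-seq library (filled circles, 4 per gene) and PRO-seq library (open triangles, 2 per gene), ordered by class and RNA-seq level. Libraries of an assay lie close together for each gene, while genes range 13.9-fold in PRO-seq and 97.7-fold in RNA-seq.

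The most abundant kinesin RNA was that of KIF2C, a motor that depolymerises microtubules at kinetochores. Its RNA-seq levels were 262, 262, 265 and 240 TPM and its PRO-seq levels 140 and 150 TPM. Library 4 was the lowest of the RNA-seq libraries, and all of them lay above KIF5B, the second most abundant. KIF5B, the ubiquitous heavy chain of conventional kinesin, had 198, 206, 201 and 207 TPM in RNA-seq and 113 and 122 TPM in PRO-seq. KIF22, a chromosome-arm motor, had 160, 166, 172 and 169 TPM in RNA-seq and 123 and 121 TPM in PRO-seq. The RNA-seq values of these 3 genes did not overlap, whereas the PRO-seq values of KIF5B and KIF22 did. The counted KIF22 transcript covers 31.5% of the exon bases of its gene, and its level per length refers to that transcript alone.

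Half-lives were tested gene by gene against the median mRNA. The edgeR quasi-likelihood test with Benjamini-Hochberg adjustment over 9933 TUs placed 18 of the 28 kinesins above the median mRNA and 9 below it at an adjusted p under 0.05. Over all TUs tested, 40.4% were called above and 50.0% below, and among the 8733 mRNAs alone 3964 were above and 3923 below. Called members thus lay above the median mRNA 2 times as often as below it. When a 2-fold difference was required, 6 kinesins were above and 5 below, against 21.5% and 29.2% of all TUs. Among the 8733 mRNAs alone, 2120 were above and 2023 below at that difference. The share of kinesins above was thus close to that of all TUs, and the share below was lower. All TUs include noncoding units, and beside mRNAs alone both shares were slightly lower. The median log2 half-life of the 28 kinesins was 0.28 relative to the median mRNA, with a range of -2.34 to 1.96 (SD 1.14), against an SD of 1.68 over mRNAs. Replicate SDs of single kinesins were 0.0397 to 0.283 on the log2 scale (median 0.106), so kinesins differed among themselves by more than the libraries did.

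Most mitotic kinesins lay above the median mRNA. Of the 12 past the thresholds, 10 were above the median mRNA, 1 was below (KIF18B) and 1 was not called (KIF23). Over all TUs tested, 40.4% were called above and 50.0% below. Their median log2 half-life was 0.63. With a 2-fold difference required, KIF4A, KIF20B, KIF11, KIF2C and KIF22 stayed above and KIF18B below. At that difference 21.5% of all TUs were above and 29.2% below.

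KIF4A, a chromokinesin that carries PRC1 to the spindle midzone (GRCh37 chrX:69509954-69640736, 31 exons), had the highest ratio of all kinesins. Its RNA-seq levels were 52.4, 54.9, 53.1 and 57.4 TPM, and its PRO-seq levels 22.5 and 20.9 TPM. Its PRO-seq level was the lowest of the mitotic kinesins past the thresholds, yet its RNA level was near their median. The log2 half-life was 1.96 (replicate SD 0.0945, n = 4 and 2; adjusted p = 4.7e-24, edgeR), or 3.90-fold that of the median mRNA.

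KIF20B, which acts at the end of cytokinesis, followed with 63.5, 63.6, 65.6 and 69.5 TPM in RNA-seq and 33.4 and 31.5 TPM in PRO-seq. Its log2 half-life was 1.65 (replicate SD 0.0851; adjusted p = 1.5e-22, edgeR). KIF11, the motor that slides spindle poles apart and is the target of several antimitotic inhibitors, had 71.7, 73.3, 70.1 and 77.2 TPM in RNA-seq and 41.2 and 39.8 TPM in PRO-seq. Its log2 half-life was 1.49 (replicate SD 0.0684; adjusted p = 1.6e-21, edgeR). In these 3 genes every RNA-seq library lay above both PRO-seq libraries in TPM, although the scales of the assays differ and only their ratio relative to other genes is read. KIF2C (1.46) and KIF22 (1.09) came next; the KIF2C unit overlaps a counted unit on the other strand over 30.9% of its span, and no source used here states whether counting used strand.

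At the lower end, KIF18A, which dampens chromosome oscillation at metaphase, and KIF23, the motor of the centralspindlin complex, were close to the median mRNA. KIF18A had 32.2, 37.0, 36.2 and 36.1 TPM in RNA-seq and 50.0 and 47.3 TPM in PRO-seq, a log2 half-life of 0.18 (replicate SD 0.106; adjusted p = 0.0091, edgeR). Without PRO-seq library 2 its adjusted p was 0.14. KIF23 had 42.5, 45.7, 40.6 and 48.3 TPM in RNA-seq and 63.2 and 63.3 TPM in PRO-seq, a log2 half-life of 0.13 (replicate SD 0.110; adjusted p = 0.077, edgeR). Its call depended on 1 library: without RNA-seq library 3 the adjusted p was 0.031. Between these and the top of the class, all called above, lay KIF15 (0.77), which helps to keep the spindle bipolar, KIF20A (0.49), the minus-end motor KIFC1 (0.24), which focuses spindle poles, and KIF14 (0.19), which acts in cytokinesis.

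KIF18B, a motor of microtubule plus ends (GRCh37 chr17:43002077-43025005, 15 exons), stood apart from the rest of its class. It had 14.9, 14.8, 14.5 and 13.7 TPM in RNA-seq, the lowest of the mitotic kinesins past the thresholds, but 112 and 117 TPM in PRO-seq, among the highest. Its PRO-seq level was thus at the 85.2 percentile of mRNAs past the thresholds and its RNA-seq level at the 29.1 percentile. The log2 half-life was -2.34 (replicate SD 0.0765; adjusted p = 7.9e-24, edgeR), 0.197 of that of the median mRNA. Across the 8 pairs of 1 RNA-seq and 1 PRO-seq library it ranged from -2.46 to -2.28, below every pair of any other mitotic kinesin.

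Transport kinesins lay on both sides: 7 were above and 5 below the median mRNA, and their median log2 half-life was 0.25. The 8733 mRNAs tested lay on both sides too, with 3964 above and 3923 below. With a 2-fold difference required, KIF5B was above and KIF3C and KIF5A were below, against 21.5% and 29.2% of all TUs. KIF5B, whose library values are given above, had the highest ratio of the class, 1.43 on the log2 scale (replicate SD 0.0833; adjusted p = 1.4e-24, edgeR).

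KIFC3, a minus-end motor linked to cell junctions and the Golgi, had 66.0, 63.0, 67.6 and 53.6 TPM in RNA-seq and 43.0 and 47.4 TPM in PRO-seq. Its log2 half-life was 1.11 (replicate SD 0.181; adjusted p = 3.8e-13, edgeR). RNA-seq library 4 was the lowest, and the value carries a further limit: the counted transcript has 623 exon bases, 6.49% of the exon bases of the gene, over a unit of 74857 bases. That unit also overlaps a counted unit on the other strand over 20.9% of its span. KIF3B, which pairs with KIF3A in the heterotrimeric kinesin of cilia, had 17.5, 18.9, 19.3 and 18.4 TPM in RNA-seq and 16.6 and 17.9 TPM in PRO-seq. Its log2 half-life was 0.74 (replicate SD 0.098; adjusted p = 5.3e-10, edgeR).

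The lowest ratio of the transport class was that of KIF3C, an alternative partner of KIF3A that is best known from neurons. It had 2.65, 2.23, 3.08 and 2.81 TPM in RNA-seq and 15.4 and 16.0 TPM in PRO-seq, so that every library held few RNA reads beside a PRO-seq level close to that of KIF3B. The log2 half-life was -1.93 (replicate SD 0.198; adjusted p = 4.3e-15, edgeR). KIF5A, the neuronal heavy chain of conventional kinesin, had 5.07, 6.03, 5.30 and 4.39 TPM in RNA-seq and 17.5 and 19.5 TPM in PRO-seq. Its log2 half-life was -1.18 (replicate SD 0.219; adjusted p = 1.9e-10, edgeR), on a transcript covering 47.2% of the exon bases of its gene. KIF13B, a vesicle motor, had 12.3, 11.3, 11.6 and 11.9 TPM in RNA-seq and 29.8 and 31.0 TPM in PRO-seq, with a log2 half-life of -0.73 (replicate SD 0.0671; adjusted p = 2.6e-13, edgeR). The KIF13B unit overlaps a counted unit on the other strand over 16.0% of its span.

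The other 6 transport kinesins lay nearer the median mRNA. KIFC2 (0.56), KIF1C (0.38), KIF3A (0.32) and KIF16B (0.19) were called above, and KIF13A (-0.23) and KIF1B (-0.34) below. KIF1B and KIF1C carry vesicles, KIF13A moves recycling endosomes, and KIF16B moves early endosomes. KIFC2, KIF3A and KIF16B lost the call when 1 library was left out: KIFC2 without PRO-seq library 2 (adjusted p = 0.094, edgeR), KIF16B without RNA-seq library 4 (0.057) or PRO-seq library 1 (0.11), and KIF3A without RNA-seq library 1 (0.075), PRO-seq library 1 (0.11) or PRO-seq library 2 (0.053). The KIF3A unit overlaps a counted unit on the other strand over 69.1% of its span.

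Of the other kinesins, 4 passed the thresholds. KIF21A, which restrains microtubule growth at the cell cortex, had 26.8, 26.2, 27.1 and 26.3 TPM in RNA-seq and 33.7 and 32.5 TPM in PRO-seq. It was the only one above the median mRNA, at 0.32 (replicate SD 0.0442; adjusted p = 1.6e-06, edgeR). Its paralog KIF21B had 4.62, 5.17, 4.91 and 4.28 TPM in RNA-seq and 27.0 and 27.6 TPM in PRO-seq, and lay at -1.88 (replicate SD 0.119; adjusted p = 5.5e-19, edgeR). The RNA-seq libraries of this pair did not overlap, with KIF21A the higher.

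KIF24, a centriole protein that restrains the formation of cilia, had 7.99, 5.91, 6.88 and 6.64 TPM in RNA-seq and 30.5 and 30.4 TPM in PRO-seq. It lay at -1.51 (replicate SD 0.179; adjusted p = 6.1e-16, edgeR). KIF9, which belongs to the axoneme of cilia and flagella, had 6.91, 7.58, 7.75 and 9.47 TPM in RNA-seq and 24.6 and 25.9 TPM in PRO-seq. It lay at -1.05 (replicate SD 0.198; adjusted p = 6.7e-11, edgeR), on a unit that overlaps a counted unit on the other strand over 34.0% of its span. KIF24 and KIF9 thus had PRO-seq levels near that of KIF21A but lower RNA-seq levels in every library.

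Set side by side, the mitotic and transport classes differed more in level than in half-life. Among members past the thresholds, the median PRO-seq level was 67.6 TPM for mitotic and 20.9 TPM for transport kinesins, a log2 difference of 1.70 (1.61 and 1.77 in the 2 libraries) or 3.25-fold. The median RNA-seq level was 64.7 and 15.1 TPM, a log2 difference of 2.13 (2.07 to 2.17 over 4 libraries) or 4.39-fold. The median log2 half-life differed by 0.38, with mitotic kinesins higher in each of the 8 library pairs (0.33 to 0.51). That difference was small beside the spread within the classes, whose SDs were 1.13 and 0.964. Members are not replicates of a class, so no test was made of it. Above thresholds of 20 TPM and 2 TPM the differences were 0.79 in PRO-seq, 0.93 in RNA-seq and 0.16 in half-life. The half-life difference was 0.58 for means in place of medians, and 0.24 without KIF22, KIF5A and KIFC3, whose counted transcripts cover under 0.5 of the exon bases of their genes. With the 13 mitotic and 15 transport kinesins that had any count in both assays, the medians were 0.77 and -0.23, on a scale where the median of 14965 mRNAs was -0.63.

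**Figure D3:**
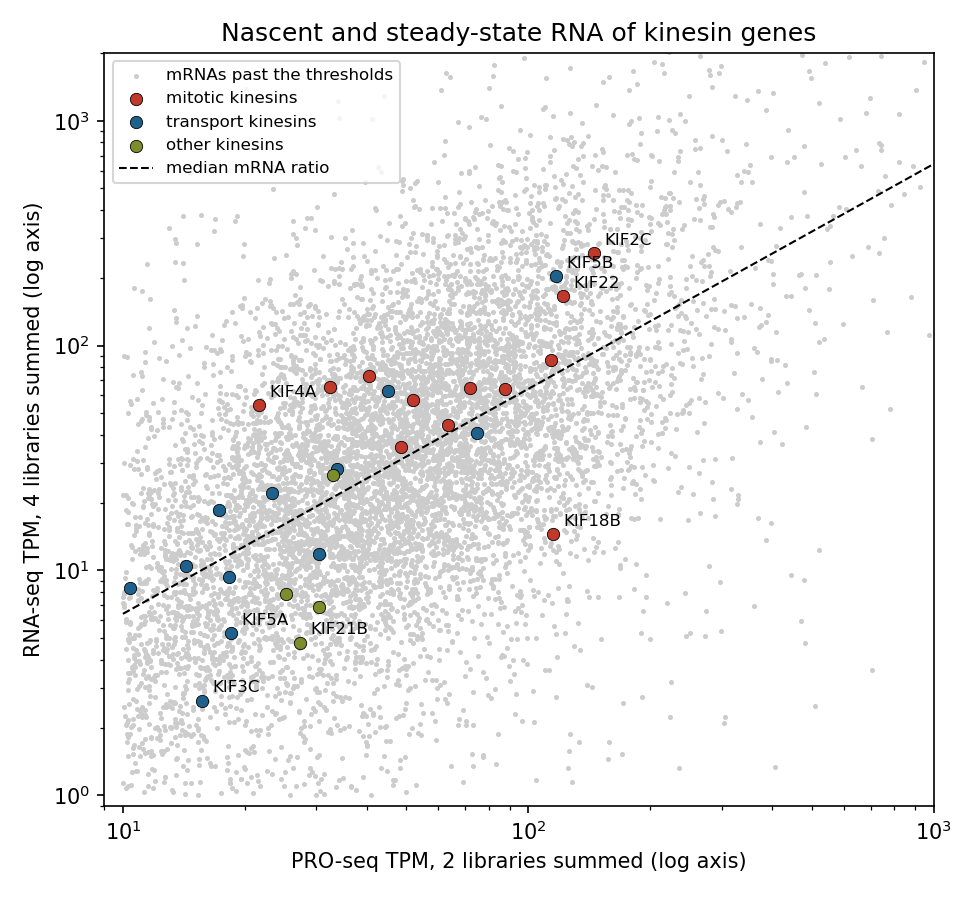
RNA-seq TPM (y axis, log scale) against PRO-seq TPM (x axis, log scale) for the 28 kinesins past the thresholds, colored by class, over mRNAs (grey; those beyond the axes are not drawn), with the dashed line at the median mRNA ratio. All mitotic kinesins but KIF18B lie above the line; KIF18B lies well below it, with 14.5 TPM in RNA-seq against 115 TPM in PRO-seq.

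Paralogs with similar roles differed widely. KIF3B and KIF3C had a PRO-seq ratio of 1.1 and an RNA-seq ratio of 6.99, so the log2 half-life of KIF3B was 2.67 higher (2.48 to 2.97 over 8 library pairs). KIF21A and KIF21B had a PRO-seq ratio of 1.21 and an RNA-seq ratio of 5.57, a log2 half-life difference of 2.2 (2.02 to 2.38). In both subfamilies nearly equal nascent transcription thus stood beside unequal steady-state RNA.

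In the KIF18 subfamily the order turned between assays. KIF18A had 0.424 of the PRO-seq level of KIF18B but 2.43-fold its RNA-seq level, a log2 half-life difference of 2.52 (2.27 to 2.71). For KIF20A and KIF20B, unequal nascent transcription stood beside nearly equal steady-state RNA. KIF20A, the midzone motor of cytokinesis, had 2.22-fold the PRO-seq level of KIF20B and 0.996 of its RNA-seq level, a difference of -1.16 (-1.29 to -1.0). KIF5A and KIF5B were unequal in both assays, with KIF5A at 0.158 of KIF5B in PRO-seq and 0.0259 in RNA-seq, a difference of -2.61 (-2.92 to -2.4). Pairs of KIF1B and KIF1C (-0.72), KIF13A and KIF13B (0.5) and KIF3A and KIF3B (-0.42) were closer. These differences between genes were not tested beyond their range over library pairs, of which none crossed 0.

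Of the 13 kinesins below the thresholds, 10 were also at or below 1 TPM in RNA-seq. The nearest to passing was KIF27, with 8.94 TPM of nascent and 1.98 TPM of steady-state RNA, and the lowest that passed in PRO-seq was KIF3A, with 10.4 TPM. KIF7, a regulator of Hedgehog signaling in cilia, had 4.27 and 1.38 TPM. The transport kinesins below the thresholds were KIF1A, KIF5C and KIF17, all best known from neurons, whereas KIF5A and KIF3C passed. Nascent and steady-state levels were 1.69 and 0.908 TPM for KIF1A, 0.177 and 0.0424 TPM for KIF5C, and 2.57 and 0.148 TPM for KIF17. The conventional kinesin heavy chains thus ran in the same order in both assays, from KIF5B through KIF5A to KIF5C.

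KIF2B, the paralog of KIF2C, had 2 RNA-seq counts over 4 libraries and no PRO-seq count in either, so that nascent KIF2B RNA was not detectable at this depth, where a count of 0 allows up to 3 counts. KIF26A had no RNA-seq count and 1 PRO-seq count. The remaining members, KIF6, KIF12, KIF19, KIF25 and KIF26B, were between 0.469 and 1.97 TPM for nascent and between 0.0405 and 0.184 TPM for steady-state RNA. The counted KIF12 transcript covers 13.0% of the exon bases of its gene, and its level refers to that transcript alone.

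KIF4B, a single-exon copy of KIF4A (GRCh37 chr5:154393315-154397701), had 19, 31, 20 and 24 RNA-seq counts and 0 and 2 PRO-seq counts. Its transcript aligned to that of KIF4A with 95.6% identity over 4338 bases, and 195 of its 4313 windows of 75 bases, the RNA-seq read length, occurred exactly in KIF4A (4.52%). Reads of such windows could come from either gene, while its other windows do not occur exactly in KIF4A. The origin of the reads behind its RNA-seq level of 1.58 TPM, beside 54.4 TPM for KIF4A, was not tested.

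Gene structure was set beside that of all mRNAs. Kinesin genes past the thresholds were long and rich in exons, with a median span of 56630 bases and 22.5 exons, against 29515 bases and 9 exons for mRNAs. Mitotic kinesins had a shorter median exon length than transport kinesins, 3970 against 5991 bases, and more splice junctions per 1000 exon bases, 5.42 against 4.42. Across the 28 kinesins the log2 half-life ran with junctions per 1000 exon bases at a Spearman's rho of 0.401, against 0.369 over 8733 mRNAs. It ran against exon length at -0.292, compared with -0.331 over mRNAs, and against GC content at -0.312, compared with -0.177. The rho with span was -0.0339 for kinesins and 0.0289 for mRNAs. Exon length enters the TPM of RNA-seq and span that of PRO-seq, genes share libraries, and genes are not independent replicates, so these are descriptions.

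Proteins that work with kinesins were described in the same way, by counts and medians alone. Of 12 mitotic partners, 10 passed the thresholds and 9 were above the median mRNA (edgeR), with a median log2 half-life of 0.91. Among all TUs tested, 40.4% were called above and 50.0% below. Their median nascent level was 80.1 TPM and their median steady-state level 101 TPM. HMMR, a spindle protein, had 259, 263, 250 and 272 TPM in RNA-seq and 54.6 and 50.8 TPM in PRO-seq, a log2 half-life of 2.95 (replicate SD 0.0886; adjusted p = 1.9e-29, edgeR), above every kinesin. CENPE, a kinetochore kinesin named outside the KIF series, lay at 0.40 (adjusted p = 1.3e-07, edgeR). AURKB, the kinase of the chromosomal passenger complex, was not called (0.04; adjusted p = 0.67, edgeR).

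Light chains and cargo adaptors of the transport kinesins formed the other list. Of 11 listed, 7 passed, and the median was -0.41. Of these 7, 1 was above and 4 were below the median mRNA (edgeR), against 40.4% and 50.0% of all TUs tested. The one above was KIFAP3, the non-motor subunit that binds KIF3A and KIF3B, with 26.0, 28.7, 26.3 and 30.6 TPM in RNA-seq and 13.8 and 14.1 TPM in PRO-seq, a log2 half-life of 1.64 (replicate SD 0.113; adjusted p = 2.1e-19, edgeR). At the lower end, TRAK2, which links mitochondria to KIF5 motors, lay at -0.79 (adjusted p = 2.3e-10, edgeR) and KLC2, a kinesin light chain, at -0.72 (adjusted p = 9.1e-06, edgeR). KIFAP3 thus lay above its motors KIF3A and KIF3B, and KLC2 below KIF5B. The light chain KLC1 did not pass, with no RNA-seq count and 1 and 3 PRO-seq counts. Its counted transcript has 540 exon bases over a unit of 95839 bases, so these counts refer to that transcript alone.

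Dynein, the motor that walks the other way, and its cofactor dynactin were listed for comparison. Of 16 genes, 13 passed, and the median was 0.86. Of these 13, 10 were above and 2 below the median mRNA (edgeR), against 40.4% and 50.0% of all TUs tested. DYNLL1, a light chain, was highest at 3.96 (adjusted p = 1.6e-28, edgeR), with DCTN3 at 3.14 (adjusted p = 1e-18, edgeR). DYNLL2 lay at -0.55 (adjusted p = 3.9e-09, edgeR) and DCTN4 at -0.17 (adjusted p = 0.0022, edgeR). These genes are shorter than kinesins, with a median span of 30717 and a median exon length of 2589 bases.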

How the data were processed

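Per the labels, the authors trimmed reads with cutadapt, aligned them with HISAT2 to GRCh38 and counted them with HTSeq on the longest transcript of each gene. They deposited raw counts for each library, on exons for RNA-seq and on units without 500 bp at the ends for PRO-seq. No source used here states tool versions or whether counting used strand. Records naming no TU (66.5% to 68.6% in RNA-seq, 86.5% and 88.6% in PRO-seq) were left out.

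Of 42371 listed transcripts, 37339 (88.1%) matched GENCODE lifted to GRCh37, which supplied lengths, classes and coordinates. TPM was computed from counts summed over replicates, with exon length for RNA-seq and span less 1000 bp for PRO-seq, and half-lives were centred on the median mRNA. Tests used edgeR 4.0.16 (quasi-likelihood, TMM, length offsets, Benjamini-Hochberg adjustment) in R 4.3.3, checked on simulated data, with DESeq2 1.42.0 as an alternative. Tables were made in Python 3.11.15. RNA-seq libraries 1 and 3, and 2 and 4, were closer to each other (chi-square per degree of freedom 1.11 and 1.12) than other pairs (1.74 to 2.11) but differed by more than sampling noise and were kept apart. With each close pair summed, 18 kinesins were above and 9 below the median mRNA, but adjusted p-values were larger. That of KIF4A was then 6.4e-18, against 4.7e-24 with the libraries apart (edgeR).

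Members and gene lists were chosen with earlier results of these data known. Library values were given for the 3 highest and 3 lowest ratios of the mitotic and transport classes, the 2 highest and 2 lowest of the others, the 3 highest RNA levels and split subfamilies, and from the partner and dynein lists the 2 highest and 2 lowest ratios were named. CENPE and AURKB were named after their values were seen. Alternatives covered normalization, test, thresholds, length, library sets and left-out members.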

Additional observations from a re-analysis of the deposited data

Results flagged for a closer look

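In KIF2C, RNA-seq library 4 (240 TPM) stood apart from libraries 1 to 3 (262, 262 and 265 TPM): its gap to the nearest was 0.869 of the range of the 4 libraries, over Dixon's critical value. The 28 kinesins past the thresholds were examined this way, and chance alone flags about 1 in 20.

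TUs that carry a kinesin name but are no protein-coding gene were outside the comparisons. Their summed counts were set against the 3 counts that a count of 0 allows, without control samples. The pseudogene KIF28P had 1000 PRO-seq counts (509 and 491) and no RNA-seq count. The antisense unit KIF5C-AS1 had 409 PRO-seq counts (198 and 211) and no RNA-seq count, and KIF26B-AS1 had 12 and none. KIF9-AS1 had 694 PRO-seq and 79 RNA-seq counts. The pseudogene KIF19BP had 141 PRO-seq counts and 1 RNA-seq count, and KIF23-AS1 had 56 and 2. KIF25-AS1 had 4 PRO-seq and 9 RNA-seq counts, and KIF18B-DT had 2 and 4, the latter above the limit in RNA-seq alone. KIF9-AS1, KIF23-AS1, KIF5C-AS1 and KIF28P overlap a counted unit on the other strand over 22.2%, 64.3%, 60.7% and 29.3% of their spans, and KIF26B-AS1 over all of its span. The part of reads from that unit was not tested.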

How the results depend on the processing

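Values of single kinesins kept their direction and their side of the threshold in 394 comparisons with an alternative, lost the call in 29, gained it in 3 and turned in 2. With a 2-fold difference tested (edgeR), the counts above and below were 6 and 5 for all kinesins, with 5 mitotic above, 1 and 2 transport, 0 other above (also 0 at an unadjusted p under 0.05, and 1 in the DESeq2 test without a fold), 4 and 0 partners, and 6 and 0 dynein and dynactin genes (both 0 also unadjusted, against 4 and 2 in that DESeq2 test). With at least 1 summed count in place of the TPM thresholds, which moves the reference by -0.63, 3 transport and 7 other kinesins were below, with 16 partners above and 0 below and 0 dynein and dynactin genes below (edgeR; both 0 also unadjusted), and KIF13A (0.43), KIF1B (0.32) and DCTN4 (0.49) turned from below to above, while DYNLL2 (0.11; adjusted p = 0.13, edgeR) changed sign without a call. With at least 10 counts, 6 other kinesins and 1 dynein or dynactin gene were below. Above 20 and 2 TPM, 4 transport kinesins were above and 2 below. DESeq2 lost KIF16B (adjusted p = 0.074) and KIF3A (adjusted p = 0.068). Leaving out 1 library gave 15 to 19 kinesins above and 9 below, 5 to 7 transport and 9 to 11 mitotic kinesins above. Mitotic minus transport was then 0.29 (without PRO-seq library 2) to 0.46 (without PRO-seq library 1) for half-life, 1.61 to 1.77 for PRO-seq and 2.11 to 2.14 for RNA-seq. The half-life difference was 1.00 with at least 1 count, 0.16 above 20 and 2 TPM, 0.58 by means and, chosen after seeing the data, 0.24 without members counted on under 0.5 of exon bases. The PRO-seq difference was 1.87 with at least 10 counts, 0.79 above 20 and 2 TPM, 1.30 by means and 1.87 without KIFC3 (added after seeing the data). The RNA-seq difference was 2.06 with a pseudocount of 1 TPM, 2.62 and 2.46 with at least 1 and 10 counts, 0.93 above 20 and 2 TPM, 1.89 by means and, both added after seeing the data, 2.46 without KIFC3 and 1.80 without members overlapping another strand. Replicate numbers 1 and 2 did not pair the assays (correlation -0.0114 over 9844 TUs): with a replicate block 16 kinesins were above and 9 below, and KIF18A (adjusted p = 0.077) and KIF16B (adjusted p = 0.19) lost the call. Causes were not tested. The alternatives on KIF2A and on same-strand overlap (0 members) left nothing to recompute and were not run.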
